A study of Mus musculus with 10 samples.

Results

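The genes described here are the 4 mouse genes whose enzymes can transaminate kynurenine, *Kyat1*, *Kyat3*, *Aadat* and *Got2*, together with *Got1*, the cytosolic partner of *Got2*. They were chosen by name: a row of the count table was taken where its Ensembl identifier maps to 1 of these symbols in GENCODE M21 of GRCm38, and 5 of the 49315 rows met that rule. Of the 5, 4 had enough counts to be tested, among 14714 tested genes in all, and *Aadat* did not. RNA was sequenced from the gastrocnemius of 10 male C57BL6J mice, 5 AHR-floxed (AHRfl/fl) and 5 whose myofibres lack the aryl hydrocarbon receptor by design (AHRmKO). All 10 mice carried the floxed *Ahr* allele and had 16 weeks of chronic cigarette smoke on 5 days per week. The smoke held 220 ± 80 mg of particulates per cubic metre, and muscle was harvested 72 h after the last smoke. The paper's Results give a range of harvest times up to 72 h, and state that receptor activation is by then back at baseline. In AHRmKO mice a tamoxifen-activated Cre (HSA-MCM) under the human skeletal actin promoter deletes *Ahr* in myofibres, so other cells of the muscle keep the gene, and the AHRfl/fl mice were littermates without Cre. Air-exposed mice were not analysed here, so each difference below is between genotypes after smoke. The labels do not give the ages of these mice.

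Kynurenine is made from tryptophan, mainly in liver and immune cells, and is a ligand of the aryl hydrocarbon receptor. Kynurenine aminotransferases convert it to kynurenic acid, which crosses the blood-brain barrier poorly, and in skeletal muscle their expression is known to rise with endurance exercise under the coactivator PGC-1α. GOT1 and GOT2 are best known as the cytosolic and mitochondrial aspartate aminotransferases, which carry reducing equivalents into mitochondria as part of the malate-aspartate shuttle, and GOT2 also accepts kynurenine.

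The genes lie on 4 chromosomes of GRCm38. *Kyat1* (ENSMUSG00000039648), which encodes a cytosolic and mitochondrial kynurenine aminotransferase also known as a glutamine transaminase, spans chr2:30185124-30205847 on the minus strand. *Kyat3* (ENSMUSG00000040213), a paralogous kynurenine aminotransferase, spans chr3:142701051-142746870 on the plus strand. *Aadat* (ENSMUSG00000057228), the aminoadipate aminotransferase, spans chr8:60505932-60545677 on the plus strand. *Got1* (ENSMUSG00000025190) spans chr19:43499752-43524605 and *Got2* (ENSMUSG00000031672) chr8:95864134-95888547, both on the minus strand.

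Because the receptor binds DNA as a dimer with ARNT at sites with the core GCGTG, the 250 bases before each gene's RefSeq start were read (GRCm38.p6), where all 5 genes were found. The RefSeq start equals the GENCODE one for *Kyat1* and *Got1* but lies inside the GENCODE span for *Aadat* (60506124) and *Got2* (95888401), so part of those windows is within the spans given above, and for *Kyat3* (142701048) it lies just before it. The promoters of 3 genes are printed to show where the core lies in the genes that were tested and that of *Aadat* to show one without it, each 5′ to 3′ on the gene's strand, with every match to GCGTG, read on either strand, in capitals (CACGC is the same site on the opposite strand).
Kyat1: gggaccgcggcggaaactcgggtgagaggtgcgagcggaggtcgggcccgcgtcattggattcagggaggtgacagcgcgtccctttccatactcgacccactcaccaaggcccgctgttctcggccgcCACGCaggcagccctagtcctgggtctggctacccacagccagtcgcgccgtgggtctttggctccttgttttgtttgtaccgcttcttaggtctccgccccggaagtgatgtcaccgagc
Got1: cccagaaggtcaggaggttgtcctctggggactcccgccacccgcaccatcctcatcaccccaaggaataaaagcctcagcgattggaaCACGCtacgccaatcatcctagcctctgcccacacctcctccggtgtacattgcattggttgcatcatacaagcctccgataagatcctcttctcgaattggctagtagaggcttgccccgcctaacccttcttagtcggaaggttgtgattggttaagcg
Got2: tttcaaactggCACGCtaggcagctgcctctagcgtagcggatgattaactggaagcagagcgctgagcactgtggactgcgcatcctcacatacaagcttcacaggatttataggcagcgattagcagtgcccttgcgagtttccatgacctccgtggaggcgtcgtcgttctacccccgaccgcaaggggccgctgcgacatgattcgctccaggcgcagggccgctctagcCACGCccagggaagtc
Aadat: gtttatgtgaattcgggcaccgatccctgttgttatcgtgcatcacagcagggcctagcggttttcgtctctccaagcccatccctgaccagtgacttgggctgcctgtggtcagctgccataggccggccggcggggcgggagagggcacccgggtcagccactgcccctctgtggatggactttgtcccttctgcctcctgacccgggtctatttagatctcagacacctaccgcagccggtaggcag
These windows are chr2:30205848-30206097 for *Kyat1*, chr19:43524606-43524855 for *Got1*, chr8:95888402-95888651 for *Got2* and chr8:60505874-60506123 for *Aadat*. The core occurred 1 time before *Kyat1*, from 121 to 117 bases before the start, and 1 time before *Got1*, from 161 to 157 bases before it. It occurred 2 times before *Got2*, from 239 to 235 and from 16 to 12 bases before the start, the latter inside the GENCODE span. *Kyat3*, not printed, held it 2 times, and *Aadat* did not hold it in this window. A match is common at this length, since 28.2% of 32851 RefSeq promoter windows of 250 bases held the core and 8.6% held it at least 2 times. The half-site of the oestrogen-related receptors, AAGGTCA, was found, of the 5 windows, in that of *Got1* only, from 245 to 239 bases before the start, and in 4.1% of all windows. These matches describe the sequence and say nothing of binding.

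Total counts per mouse were between 30393035 and 37954388, and no pair among the 45 pairs of libraries held identical counts. Every fast-fibre, slow-fibre and general fibre marker had counts in every mouse, as the tissue label requires. The targeted gene *Ahr* had between 31 and 110 counts, at 2.02 ± 0.681 CPM (SD, n = 5) in AHRfl/fl and 1.58 ± 0.443 CPM (SD, n = 5) in AHRmKO muscle, and its groups overlapped (log2 fold change -0.35, 95% interval -0.90 to 0.20, adjusted p = 0.844, edgeR). That value was -0.13 without AHRfl/fl mouse 11 and -0.48 without AHRmKO mouse 9. These counts sum all exons of *Ahr*, including those the deletion leaves, and the RNA comes from all cells of the muscle. *Ddx3y*, a Y-linked gene, had between 1852 and 2723 counts in all mice, while *Xist*, normally silent in males, had over 10 counts in 5 mice (AHRfl/fl mice 11, 15 and 33 and AHRmKO mice 9 and 22) and at most 3 in the others. Its part in the results was not tested, beyond a fit with *Xist* presence as a covariate that is given with the alternatives.

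Per length of exon, *Kyat1* lay far below *Got1* and *Got2* in this muscle, and *Kyat3* below *Kyat1*. On the FPKM scale (CPM per kilobase of the union of a gene's exons), *Got1* was at 167.6 ± 28.4 (SD, n = 10) and *Got2* at 110.2 ± 16.7, *Kyat1* at 6.34 ± 0.209 and *Kyat3* at 0.985 ± 0.107. Of all tested genes, 98.6% had a lower mean FPKM than *Got1*, 97.7% than *Got2*, 73.5% than *Kyat1* and 35.7% than *Kyat3*. The order *Got2*, *Kyat1*, *Kyat3* held in every mouse, with *Got2* between 12.2 and 20.6 times the FPKM of *Kyat1* and *Kyat1* between 5.61 and 7.91 times that of *Kyat3* (3.52 to 4.97 times with the longest transcript). The order of *Got1* and *Got2* depended on the length used. Their ratio was between 1.39 and 1.67 in the 10 mice with union exons and between 0.900 and 1.08 with the longest transcript, which gave 206.8 and 210.1 FPKM. No ratio passed the two-sided exact permutation test between genotypes (p = 0.198 for *Got1* over *Got2*, p = 0.643 for *Got2* over *Kyat1* and p = 0.405 for *Kyat1* over *Kyat3*).

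**Figure D1:**
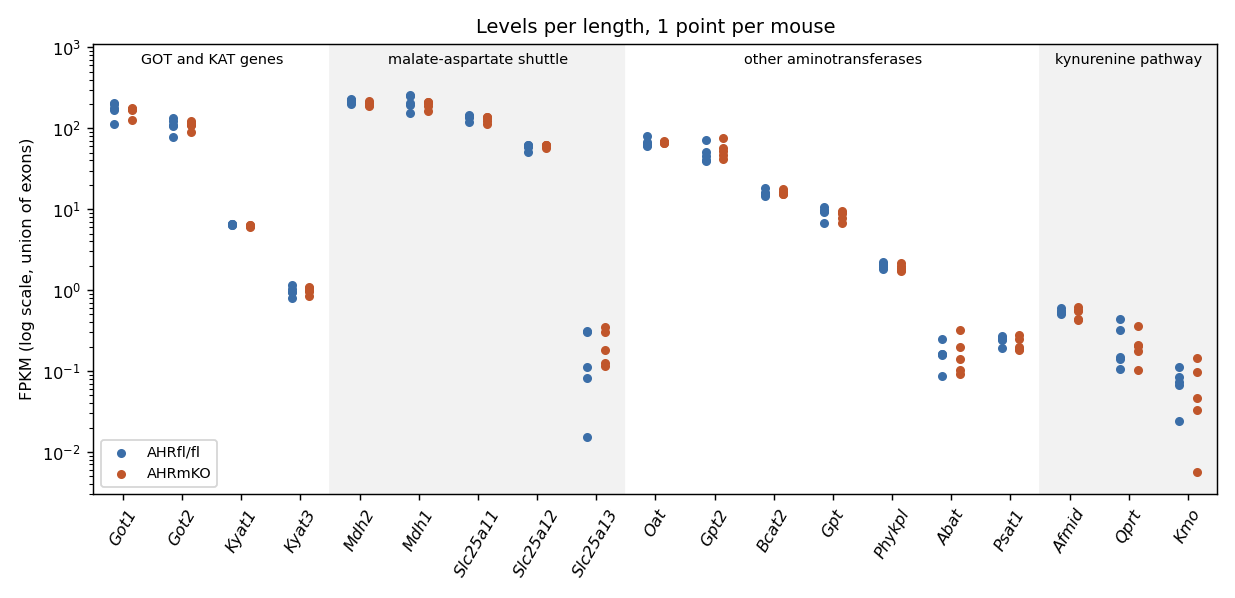
FPKM (log axis) of each gene in each mouse, by gene group and genotype. *Got1* and *Got2* sit above 77 FPKM in every mouse, and of the shuttle genes *Slc25a12* (at most 62.6) and *Slc25a13* (at most 0.353) lie below them. *Kyat1* stays between 5.94 and 6.63 and *Kyat3* between 0.803 and 1.15.

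*Aadat*, often named as the main kynurenine aminotransferase of liver and brain, was almost without reads in this muscle. It had 1 count, in AHRfl/fl mouse 33, and 0 in the other 9 libraries, or 1 of 354524548 counts. The exact 95% Poisson interval of that count is 0.0253 to 5.57, so that the pooled level was 0.00282 CPM with an upper limit of 0.0157 CPM, or 0.00722 FPKM, here scaled by the raw totals without TMM factors. This interval covers counting error only, and no difference between genotypes could be measured at this depth.

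No tested member passed the threshold between genotypes. In the quasi-likelihood fit of edgeR, 0 of 4 reached an adjusted p under 0.05, where 0.0068% of all tested genes did, and 0 had an unadjusted p under 0.05, where 6.61% of all genes did. DESeq2 and limma-voom also called 0 of the 4. The members' estimates were 1 above and 3 below 0, with a median log2 fold change of -0.04 beside 0.01 for all tested genes. In whole muscle, fewer cells of a type and less RNA per cell cannot be told apart.

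*Kyat1* was the most even of the members between mice. It was at 18.5, 18.6, 19.1, 19.2 and 19.4 CPM in AHRfl/fl mice 11, 12, 13, 15 and 33. It was at 18.4, 17.9, 18.4, 17.4 and 18.4 CPM in AHRmKO mice 8, 9, 19, 22 and 34. Every AHRmKO mouse was therefore below every AHRfl/fl mouse, by a narrow margin, and the means were 18.1 ± 0.455 against 18.96 ± 0.396 CPM (SD, n = 5 each), a difference of -4.61%. The two-sided exact permutation test gave p = 0.00794, the smallest that 5 against 5 mice allow, before any adjustment for the genes tested. *Kyat1* was 1 of 4 members without overlap, where 1.4% of all tested genes had none. EdgeR's estimate of log2 fold change was -0.07 ± 0.0561 (SE), with a 95% interval of -0.19 to 0.05 and an adjusted p of 0.866. The lack of overlap also rested on the scaling: with DESeq2's size factors the groups overlapped (18.5 to 19.4 against 17.4 to 18.5, exact permutation p = 0.0159), and with library size alone they ran from 17.6 to 20.6 and from 17.4 to 19.1 CPM (exact permutation p = 0.111). With TMM factors from counts without mtDNA genes they stayed apart, at 20.6 to 21.5 against 19.3 to 20.5 CPM (exact permutation p = 0.00794).

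With between 615 and 701 counts a mouse, counting alone would give *Kyat1* an SD of 0.0564 on the log2 scale, and the SD over the 10 mice was 0.0478. Only 0.307% of the genes with a mean of at least 5 CPM varied less. That share depends on depth, since genes with fewer counts have a larger counting SD (0.0792 for *Kyat3*).

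*Kyat3* did not separate the genotypes. It was at 8.93, 7.64, 9.11, 10.9 and 9.92 CPM in AHRfl/fl mice 11, 12, 13, 15 and 33. It was at 9.38, 10.4, 8.05, 10.1 and 9.30 CPM in AHRmKO mice 8, 9, 19, 22 and 34. The groups overlapped, with the lowest value in AHRfl/fl mouse 12 and the highest in AHRfl/fl mouse 15. Its log2 fold change in edgeR was 0.02 ± 0.107 (SE), with a 95% interval of -0.21 to 0.25 (adjusted p = 0.986), and its sign changed with library size alone (-0.000369). The antisense gene *Gm15540* shares exon sequence with *Kyat3* on the other strand, but had only 5 counts over all mice.

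*Got1* and *Got2*, the aspartate aminotransferases, were abundant and varied more between mice than between genotypes. *Got1* was at 421.6, 288.5, 446.0, 503.9 and 524.4 CPM in AHRfl/fl mice 11, 12, 13, 15 and 33. It was at 450.1, 428.4, 434.6, 437.5 and 321.3 CPM in AHRmKO mice 8, 9, 19, 22 and 34. In each genotype 1 mouse stood low, AHRfl/fl mouse 12 and AHRmKO mouse 34, and the remaining values of the groups overlapped. AHRmKO against AHRfl/fl gave -0.08 ± 0.148 (SE) on the log2 scale in edgeR, with a 95% interval of -0.40 to 0.25 (adjusted p = 0.956). Without AHRmKO mouse 34 it was 0.00245, and without AHRfl/fl mouse 12 it was -0.195.

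*Got2* was at 509.6, 372.9, 532.9, 653.4 and 597.4 CPM in AHRfl/fl mice 11, 12, 13, 15 and 33. It was at 596.5, 523.4, 534.2, 556.0 and 439.0 CPM in AHRmKO mice 8, 9, 19, 22 and 34. The same 2 mice were the lowest of their genotypes, and the group means were 533.2 ± 105.9 and 529.8 ± 58.0 CPM (SD, n = 5 each). On the log2 scale the difference was -0.01 ± 0.132 (SE) in edgeR, with a 95% interval of -0.29 to 0.28 (adjusted p = 0.995), and its sign changed in several alternatives. At between 12929 and 22844 counts a mouse, counting would give *Got2* an SD of 0.0105 on the log2 scale, against 0.233 between mice. The pseudogene *Got2-ps1* (chr5:138364260-138365552), a near copy that could take or lose reads, had between 11 and 26 counts. The overlapping *Gm45760* had 12 in all.

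**Figure D2:**
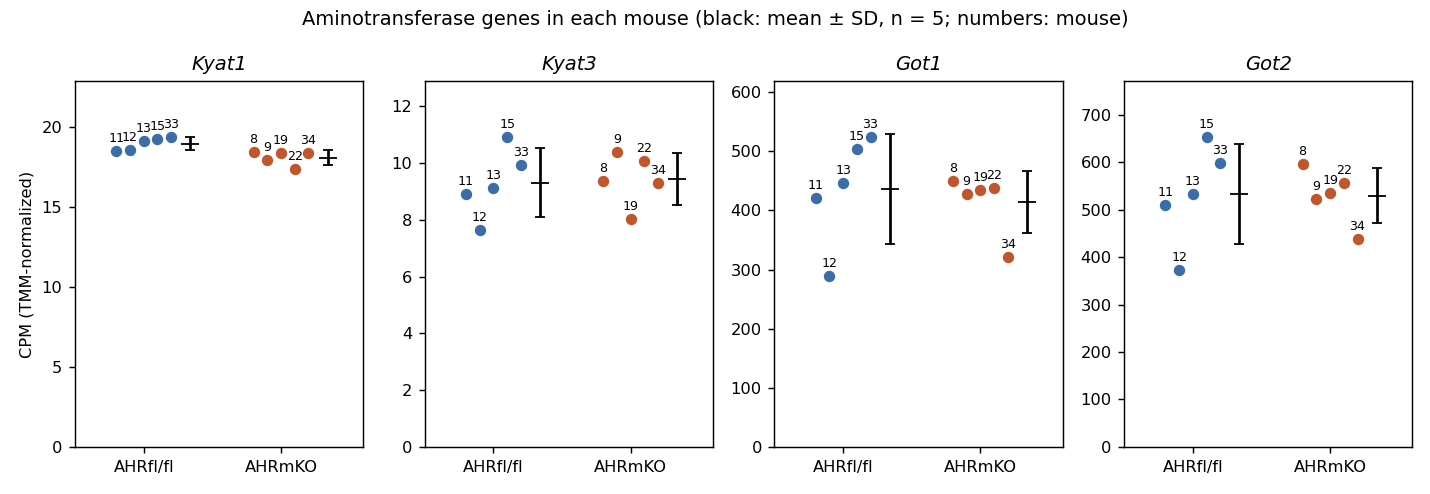
CPM of *Kyat1*, *Kyat3*, *Got1* and *Got2* in each of 5 AHRfl/fl and 5 AHRmKO mice, with the mean and SD of each group. The AHRmKO values of *Kyat1* all lie below the AHRfl/fl values, from 17.4 to 18.4 against 18.5 to 19.4 CPM, and the groups overlap in the other 3 genes.

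Over the 10 mice *Got1* and *Got2* moved together. Of 14 relations computed on log2 CPM, among the tested members and of each with a slow-fibre score (the mean of 8 slow-fibre genes) and with *Ppargc1a*, 2 had an adjusted p under 0.05. *Got1* and *Got2* had Pearson's r = 0.96 (permutation p = 2e-04, adjusted p = 0.0028) and Spearman's rho = 0.95 (permutation p = 0.00017, adjusted p = 0.00238). Without AHRfl/fl mouse 12 and AHRmKO mouse 34, the 2 farthest from the median of *Got1*, r was 0.83, and with genotype means removed it was 0.97.

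*Got2* also followed the slow-fibre score, with r = 0.82 (permutation p = 0.00145, adjusted p = 0.0101) and rho = 0.83 (permutation p = 0.00511, adjusted p = 0.0358). Without AHRfl/fl mouse 12 and AHRmKO mouse 8, r was 0.69, and with genotype means removed it was 0.84. For *Got1* and the score r was 0.69 (permutation p = 0.0234, adjusted p = 0.0819) and rho 0.71 (permutation p = 0.0266, adjusted p = 0.124). Without the same mice r was 0.50, and with genotype means removed it was 0.74.

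*Kyat3* had r = 0.71 with *Got2* (permutation p = 0.0193, adjusted p = 0.0819, rho = 0.64, permutation p = 0.0549, adjusted p = 0.192) and r = 0.64 with *Got1* (permutation p = 0.0464, adjusted p = 0.130, rho = 0.58, permutation p = 0.0879, adjusted p = 0.246). Both rested on AHRfl/fl mice 12 and 15, without which r was 0.20 and 0.17, while with genotype means removed it was 0.71 and 0.65. The AHRfl/fl mice had the same order in *Kyat3* and *Got2*, but the AHRmKO mice did not. Of these, mouse 9 had the highest *Kyat3* (10.4 CPM) but *Got2* of 523.4 CPM, above only mouse 34 (439.0 CPM). No relation of *Kyat1* passed the threshold, with r = 0.01 for *Kyat3*, 0.28 for *Got1*, 0.21 for *Got2* and 0.01 for the slow-fibre score (lowest adjusted permutation p = 0.741). AHRfl/fl mice 15 and 33 were the highest of their genotype in *Kyat1*, *Kyat3*, *Got1*, *Got2* and the score. Among AHRmKO mice, mouse 22 had the lowest *Kyat1* (17.4 CPM) but *Got2* of 556.0 CPM, below only mouse 8 (596.5 CPM). *Ppargc1a*, the gene of PGC-1α, had r = 0.21 with *Kyat1*, -0.29 with *Kyat3*, -0.07 with *Got1* and -0.08 with *Got2* (lowest adjusted permutation p = 0.741). *Kyat3* and the slow-fibre score had r = 0.56 (permutation p = 0.0986, adjusted p = 0.230). Each genotype had only 5 mice, too few for a correlation of its own, so whether a pooled r holds within both genotypes was not tested. Neither a pooled r nor one with genotype means removed shows that both genotypes share a relation. These relations were sensitive to scaling, and with library size alone 7 of the 14 had an adjusted p under 0.05. Among them were *Kyat1* with *Got1* (r = 0.75, permutation p = 0.0130, adjusted p = 0.0355) and with *Got2* (r = 0.71, permutation p = 0.0219, adjusted p = 0.0437).

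**Figure D3:**
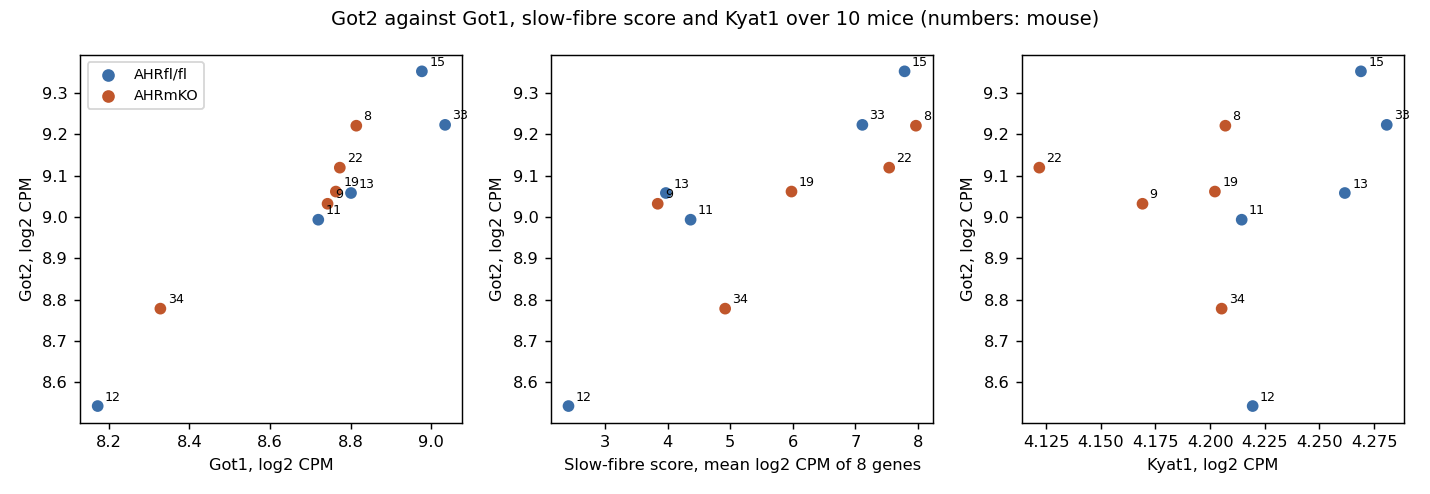
log2 CPM of *Got2* in 10 mice against that of *Got1*, the slow-fibre score and log2 CPM of *Kyat1*, with points by genotype. *Got2* rises with *Got1* (r = 0.96) and with the score (r = 0.82), while r with *Kyat1* is 0.21 with this TMM scaling and 0.71 with library size alone.

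AHRfl/fl mouse 12 and AHRmKO mouse 34, the low mice of *Got1* and *Got2*, also stood apart in fibre markers. Their summed fast-fibre markers were 136268 and 129326 CPM, above the 94562 to 117627 CPM of the other 8 mice. Members of that list went both ways: *Myh4*, the myosin of the fastest fibres, was at 66541 and 63948 CPM against 41411 to 57712 in the others. *Myh1* was at 1251 and 1230 CPM against 1768 to 4726, and *Myh2* at 297 and 1173 CPM against 1612 to 4218, so that both of these other fast myosins were lowest in these mice. The slow-fibre sum was 94.8 CPM in AHRfl/fl mouse 12, the lowest of all, and 308.3 CPM in AHRmKO mouse 34, within the 243.3 to 2395 CPM of the others. All 7 fast-fibre and 8 slow-fibre markers had counts in every mouse. Between genotypes the fast-fibre sum ran from 94562 to 136268 CPM in AHRfl/fl and from 106042 to 129326 CPM in AHRmKO muscle, and the slow-fibre sum from 94.8 to 2019 and from 252.4 to 2395 CPM. Markers of other cells differed too: AHRfl/fl mouse 12 had the lowest endothelial (91.6 CPM) and red blood cell (102.3 CPM) sums. AHRmKO mouse 34 had the lowest Schwann cell (15.7 CPM) and adipocyte (6.13 CPM) sums. Macrophage, fibroblast and satellite cell sums of both lay within the range of the other mice. The part of fibre makeup or of other cell types in the *Got1* and *Got2* values was not tested. With these mice left out together, 0 of the 4 members were called.

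The genes whose log2 CPM was most like each member's over the 10 mice, among 8799 others with a mean of at least 5 CPM, differed between members. For *Got2* they were *Nceh1*, *Slc38a3* and *Ank2*, each with r = 0.99. For *Got1* they were *Coq8a*, a kinase-like protein of coenzyme Q synthesis, *Mb*, the gene of myoglobin, and *Slc25a34*, a mitochondrial carrier, each with r = 0.97. For *Kyat3* they were *Smtn* (r = 0.93), *Klf11* (0.93) and *Lrp4* (0.89), the last of which is the agrin receptor of the neuromuscular junction. For *Kyat1* they were *Polb*, the DNA repair polymerase (r = 0.91), *Sesn1* (0.86) and *Arhgap10* (0.86). With genotype means removed r fell to 0.80, 0.75 and 0.81 for these, but was 0.91 to 0.99 for the genes of the other members. The SD of *Kyat1* over the mice was also below that of counting. These are descriptions of 10 libraries that share 1 scaling, chosen as the highest of many.

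The malate-aspartate shuttle genes around *Got1* and *Got2* were all tested, and 0 of the 5 were called. The malate dehydrogenases *Mdh1* and *Mdh2* were at 204.3 and 209.9 FPKM by union exons, beside 167.6 for *Got1*, and at 247.2 and 465.5 FPKM by the longest transcript, beside 206.8. *Mdh1* was at 545.7 ± 109.3 CPM in AHRfl/fl and 503.2 ± 55.1 CPM in AHRmKO muscle (SD, n = 5 each, adjusted p = 0.907, edgeR). *Mdh2* was at 775.2 ± 42.9 and 720.1 ± 36.5 CPM (adjusted p = 0.815, edgeR). The oxoglutarate carrier *Slc25a11* was at 288.0 ± 22.2 and 274.7 ± 22.5 CPM (adjusted p = 0.907, edgeR), and the aspartate-glutamate carrier *Slc25a12* at 428.7 ± 32.3 and 446.8 ± 18.5 CPM (adjusted p = 0.912, edgeR). The second such carrier, *Slc25a13*, had only 2 to 51 counts a mouse. *Mdh1*, *Mdh2*, *Slc25a11* and *Slc25a12* were also lowest in AHRfl/fl mouse 12 and AHRmKO mouse 34 within each genotype.

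Of 13 other aminotransferases, 7 were tested and 0 were called, with 4 estimates above and 3 below 0. *Gpt2*, the mitochondrial alanine aminotransferase and the highest of them in CPM, was at 281.9 ± 75.8 CPM in AHRfl/fl and 309.2 ± 73.3 CPM in AHRmKO muscle (SD, n = 5 each, log2 fold change 0.13, 95% interval -0.30 to 0.56, adjusted p = 0.938, edgeR). It was highest in the mice where *Got1* and *Got2* were lowest, at 409.0 CPM in AHRfl/fl mouse 12 and 426.9 CPM in AHRmKO mouse 34, against 222.5 to 321.4 CPM in the other 8. *Oat*, the ornithine aminotransferase, was the highest per length by union exons, at 67.0 FPKM beside 52.4 for *Gpt2*, while by the longest transcript *Gpt2* was, at 81.2 beside 73.4 (adjusted p of *Oat* = 0.979, edgeR). *Bcat2*, the mitochondrial branched-chain aminotransferase, was at 62.7 ± 5.32 and 63.5 ± 3.76 CPM (adjusted p = 0.982, edgeR). The 6 untested genes had at most 13 counts in a mouse.

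**Figure D4:**
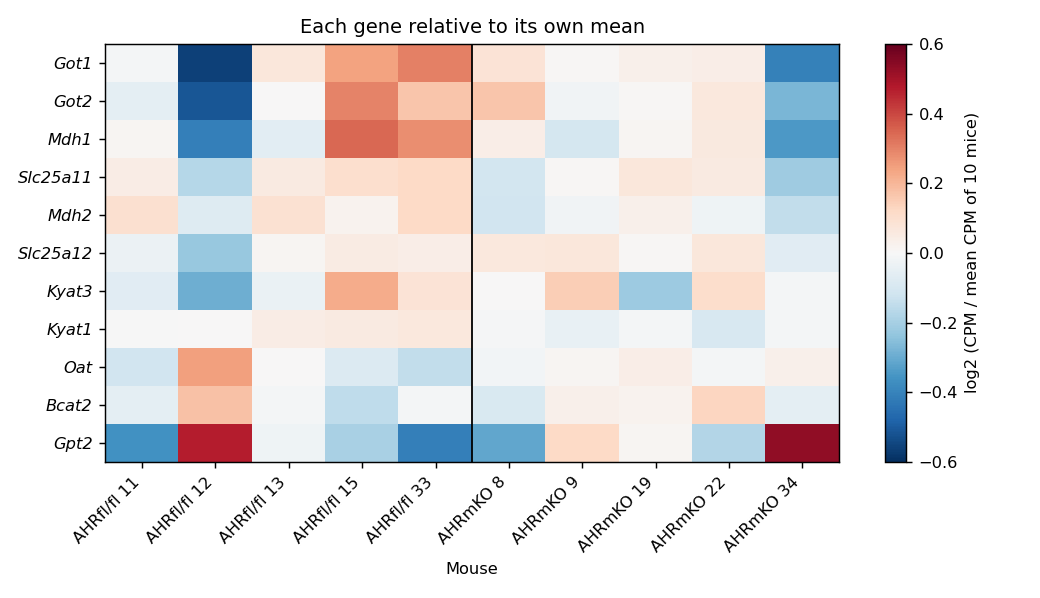
Heat map of log2 CPM relative to each gene's mean over 10 mice, for the members, the shuttle genes and other aminotransferases, with mice in columns by genotype. AHRfl/fl mouse 12 and AHRmKO mouse 34 are low in *Got1* (288.5 and 321.3 CPM) and high in *Gpt2* (409.0 and 426.9 CPM).

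The other steps of kynurenine metabolism were scarcely expressed in this muscle. Of 9 genes, 3 were tested (*Afmid*, *Kmo* and *Qprt*) and 0 were called. *Afmid*, the formamidase that releases kynurenine, was at 1.93 ± 0.108 CPM in AHRfl/fl and 1.84 ± 0.284 CPM in AHRmKO muscle (SD, n = 5 each, adjusted p = 0.964, edgeR). *Kmo*, the monooxygenase that competes with the aminotransferases for kynurenine, had between 1 and 23 counts a mouse (log2 fold change -0.15, 95% interval -1.41 to 1.10, adjusted p = 0.980, edgeR). The 6 untested genes had at most 11 counts in a mouse. Among them the tryptophan dioxygenases *Ido1* and *Tdo2* had 1 to 9 and 1 to 6 counts and the kynureninase *Kynu* 2 to 7.

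Of 8 genes of kynurenine transport and the kynurenic acid receptor, 7 were tested and 0 were called. *Slc16a10*, an aromatic amino acid transporter, was the highest in CPM, at 48.0 ± 8.97 and 46.4 ± 8.47 (SD, n = 5 each, adjusted p = 0.977, edgeR). *Slc7a5*, the light chain of the transporter that takes up kynurenine, was at 2.39 ± 0.794 and 2.15 ± 0.402 CPM (adjusted p = 0.932, edgeR), and its heavy chain *Slc3a2*, the highest per length at 9.22 FPKM, at 31.5 ± 4.07 and 33.6 ± 3.89 CPM (adjusted p = 0.902, edgeR). The receptor gene *Gpr35* was not tested, at 1 to 16 counts a mouse.

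In the PGC-1 axis, known as a driver of the muscle aminotransferases, 8 of 8 genes were tested and 0 were called. *Ppargc1a* itself was at 60.01 ± 21.2 CPM in AHRfl/fl and 59.5 ± 18.3 CPM in AHRmKO muscle (SD, n = 5 each, log2 fold change -0.01, 95% interval -0.65 to 0.62, adjusted p = 0.998, edgeR). At an unadjusted p under 0.05, 1 gene was lower, where 3.38% of all genes were, and 1 higher, where 3.23% were. The first was *Esrra*, an oestrogen-related receptor and partner of PGC-1α, at 144.0 ± 8.40 and 129.3 ± 3.42 CPM (log2 fold change -0.15, 95% interval -0.28 to -0.03, adjusted p = 0.665 in edgeR, two-sided exact permutation p = 0.0159). The other was *Pprc1*, a coactivator of the same family, at 13.8 ± 1.20 and 16.1 ± 1.75 CPM (log2 fold change 0.22, 95% interval 0.03 to 0.42, adjusted p = 0.697 in edgeR, two-sided exact permutation p = 0.0397). In both genes the groups overlapped.

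**Figure D5:**
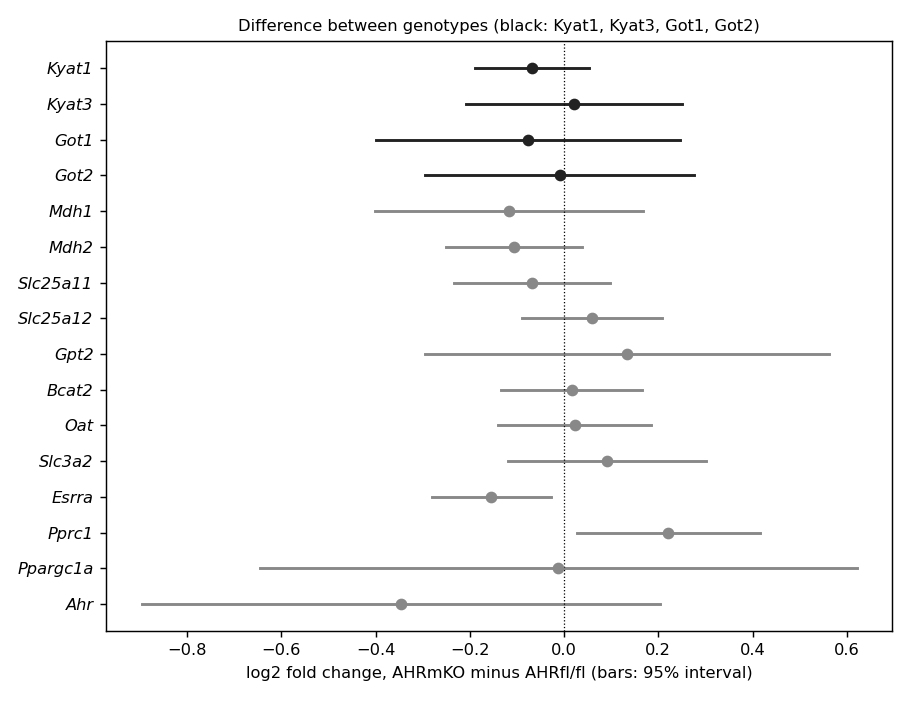
log2 fold change of AHRmKO against AHRfl/fl muscle with 95% intervals from edgeR, for the tested members (black) and genes of the surrounding lists. The intervals of the members include 0, from -0.19 to 0.05 for *Kyat1* and from -0.40 to 0.25 for *Got1*.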

How the data were processed

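The authors deposited raw counts per gene, not normalized or pooled, with 1 column for each of 10 mice, and all columns were used. Reads from poly(A)-selected libraries were trimmed with Trimmomatic 0.36 and mapped to GRCm38 with STAR 2.5.2b (per the submitters' processing notes), and unique reads on exons were counted with featureCounts. The Ensembl release is not given in the sources used here, and strand-specific counting is stated only as a condition, so reads of overlapping antisense genes may not be told apart. Reads carry no molecular identifiers, so intervals and floors cover counting error only. A floor of 3 counts was 0.079 to 0.0987 CPM of the raw total, before the TMM factors.

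Symbols, positions and exon lengths came from GENCODE M21, which held 49056 of 49315 identifiers. The fit was made with edgeR 4.0.16 (R 4.3.3) on 5 AHRfl/fl and 5 AHRmKO mice with no covariate. It used filterByExpr (minimum count 10, minimum total 15), TMM scaling and robust quasi-likelihood tests, with p-values adjusted by Benjamini-Hochberg over 14714 genes. CPM include the TMM factors, with a prior count of 2 on the log2 scale. For single genes an exact two-sided permutation test ran over 252 assignments, and relations by 100000 permutations. Of the relations planned, those with *Aadat* could not be computed, and 14 remained. Each mouse was 1 replicate. The fit was tested on simulated data.

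The genes and lists were chosen with earlier results of these data known. Named are the 5 members and *Ahr*; from the lists, genes with an unadjusted p under 0.05 or groups without overlap, the highest-expressed gene and those next to a member's step; and the 3 genes most like each member. Alternatives were DESeq2 1.42.0 (Wald test), voom of limma 3.58.1, other size factors, library size alone, mtDNA genes left out, other count filters, no robust estimation, a slow-fibre covariate, each mouse left out, thresholds of 0.1 and of a log2 fold change of 1, and the longest transcript as length.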

Additional observations from a re-analysis of the deposited data

Results flagged for a closer look

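In AHRmKO mouse 34 *Got1* was at 321.3 CPM, against 428.4 to 450.1 CPM in the other 4 AHRmKO mice, and on the log2 CPM scale the gap to the nearest took 0.853 of the range of the group. In AHRfl/fl mouse 12 *Slc25a11*, the oxoglutarate carrier, was at 250.001 CPM, against 290.3 to 305.1 CPM in the other 4, a gap of 0.750 of the range in log2 CPM. In the same mouse *Esrrg*, an oestrogen-related receptor of the PGC-1 axis, was at 12.2 CPM, against 28.04 to 30.1 CPM, a gap of 0.922 of the range in log2 CPM. Each exceeded Dixon's critical value of 0.71 for 5 samples. Of 70 groups checked 3 did so, and chance alone gives about 1 in 20. Both mice also had the highest fast-fibre marker sums, although *Myh1* (1251 CPM in AHRfl/fl mouse 12 and 1230 CPM in AHRmKO mouse 34) and *Myh2* (297 and 1173 CPM) of that list were the lowest there. The part of fibre makeup in these values was not tested.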

How the results depend on the processing

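No tested member was called in any alternative run, and *Kyat1* kept its direction in all of them (log2 fold change -0.0868 to -0.0653, and -0.0769 to -0.0539 with each mouse left out), while *Kyat3*, *Got1* and *Got2* did not. The direction of *Got2* reversed with limma-voom (0.00755) and with *Xist* presence as a covariate (0.0438). That of *Kyat3* reversed with library size alone (-0.000369), the slow-fibre covariate (-0.0120) and AHRfl/fl mouse 12 and AHRmKO mouse 34 left out together (-0.0394). The slow-fibre covariate also moved *Got1* from -0.0762 to -0.146 and *Got2* from -0.00922 to -0.0833, without a call. Leaving out each mouse gave log2 fold changes of -0.195 to 0.00245 for *Got1*, -0.115 to 0.0748 for *Got2* and -0.0430 to 0.0853 for *Kyat3*. The *Xist* covariate and the joint removal were added after seeing the data.

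Over all genes 1 was called, but 21 by DESeq2, 5 with no filter beyond 1 count, 2 with the slow-fibre covariate, 2 with both mice left out, and 1 to 6 with each mouse left out (6 without AHRmKO mouse 34). Relations with an adjusted p under 0.05 numbered 7 instead of 2 with library size alone, and 1 (without AHRfl/fl mouse 12 or 15) to 5 (without AHRmKO mouse 34) with each mouse left out. With the longest transcript as length the FPKM were 9.01 for *Kyat1*, 2.23 for *Kyat3*, 206.8 for *Got1* and 210.1 for *Got2*. The cause was not tested.

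Among the 31 other genes, 44 of 648 values reversed and 0 crossed the threshold. They reversed for *Ppard* with library size alone (-2.93e-05) and both mice left out (-0.0187), for *Slc16a10* (0.0534) and *Abat* (-0.0743) with the slow-fibre covariate, for *Esrrb* with that covariate (-0.0807) and both mice left out (-0.0578), and for *Qprt* with the *Xist* covariate (0.0310). With each mouse left out the ranges that crossed 0 were *Abat* -0.278 to 0.279, *Bcat2* -0.0171 to 0.0659, *Esrrb* -0.220 to 0.341, *Esrrg* -0.311 to 0.0149, *Gpt2* -0.0115 to 0.306, *Kmo* -0.665 to 0.153, *Oat* -0.0102 to 0.0943, *Ppard* -0.0545 to 0.0743, *Ppargc1a* -0.161 to 0.205, *Qprt* -0.422 to 0.218, *Slc16a10* -0.141 to 0.0457, *Slc43a1* -0.0248 to 0.115, *Slc43a2* -0.161 to 0.0548, *Slc7a5* -0.264 to 0.0462. Of the relations, *Ppargc1a* reversed with *Got1* (0.0894) and *Got2* (0.0926) under library size alone, and r crossed 0 with a mouse left out for *Kyat1* and *Kyat3* -0.241 to 0.251, the slow-fibre score and *Kyat1* -0.170 to 0.371, *Ppargc1a* and *Kyat1* -0.0853 to 0.433, *Ppargc1a* and *Got1* -0.411 to 0.0756, *Ppargc1a* and *Got2* -0.292 to 0.137.

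No paired analysis was made, because the labels give no litter or other pairing of AHRfl/fl and AHRmKO mice. Depth limits *Aadat* (1 count). For *Kyat3*, *Got1*, *Got2*, *Kmo* and *Slc25a13* the SD between mice exceeded that of counting, for *Slc25a13* 1.11 against 0.285 and for *Kmo* 0.949 against 0.431 on the log2 scale.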
